A study of Mus musculus with 4 samples.

Results

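Immediate early genes are transcribed without new protein synthesis when a cell receives a growth factor, a hormone or a stress, and their mRNAs are mostly short-lived. Some of their products pass the signal on, such as the AP-1, EGR and Nr4a transcription factors. Others end it, such as the Zfp36 proteins, which bind AU-rich mRNA and speed its decay, and the dual-specificity phosphatases, which inactivate MAP kinases. In intestinal epithelium several respond to EGF receptor signalling. A list of 34 such genes was matched by symbol to the deposited table, keeping for each the transcript with the highest mean over the 4 libraries. All 34 were listed, of 25796 genes in all. All 34 also passed the filter on low values (at least 1 in at least 2 libraries), as did 23116 genes in all.

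The samples were epithelial cells shaken off opened mouse colon in a buffer with EDTA, DTT and the ROCK inhibitor Y-27632, which both groups therefore received. Total RNA was sequenced without m6A enrichment, as the input of a methylated RNA immunoprecipitation, in 2 libraries labelled WT and 2 labelled Ythdf1 KO. The product of Ythdf1 binds m6A, a methyl mark on mRNA, in the cytoplasm. The labels used here name no strain, age or allele, nor whether replicates were different animals, so the spread behind each p-value may be technical. Values are normalised read counts per transcript.

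Recovered reads on the most abundant transcripts numbered 21686140 to 30951138 per library, and Spearman's rho between pairs of libraries was 0.809 to 0.833. The targeted gene did not follow its label. Ythdf1 had normalised counts of 1088 and 775.4 in WT against 1752 and 1737 in the pair labelled Ythdf1 KO, called KO-labelled from here on. Every direction given is thus one between labels, with the genotype unchecked. Epcam, an epithelial adhesion molecule, had counts of 29956 to 33789.8, which matches the labelled cell type.

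Promoters of 6 members whose labelled groups did not overlap are shown, so that the letters they do and do not share can be seen. Each is the 250 bases before the RefSeq gene start (GRCm38.p6), 5′ to 3′ on the strand of the gene. Capitals mark matches on either strand to the CArG box (the site of serum response factor), the cyclic AMP element TGACGTCA or its core TGACG, the AP-1 site TGANTCA, the EGR site GCGNGGGCG and the TATA box TATAAA. The core is contained in the full element.
Fos (chr12:85473640-85473889, plus strand): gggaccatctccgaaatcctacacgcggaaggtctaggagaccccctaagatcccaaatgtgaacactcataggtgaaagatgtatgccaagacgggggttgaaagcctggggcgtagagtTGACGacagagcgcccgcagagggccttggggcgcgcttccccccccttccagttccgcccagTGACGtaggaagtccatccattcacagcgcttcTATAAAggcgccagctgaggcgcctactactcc
Zfp36 (chr7:28379229-28379478, minus strand): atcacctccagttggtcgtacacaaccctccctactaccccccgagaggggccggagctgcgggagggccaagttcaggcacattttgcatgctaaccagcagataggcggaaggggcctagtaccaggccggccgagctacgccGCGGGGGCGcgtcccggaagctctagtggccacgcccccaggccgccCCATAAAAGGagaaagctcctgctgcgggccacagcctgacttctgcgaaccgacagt
Dusp1 (chr17:26508473-26508722, minus strand): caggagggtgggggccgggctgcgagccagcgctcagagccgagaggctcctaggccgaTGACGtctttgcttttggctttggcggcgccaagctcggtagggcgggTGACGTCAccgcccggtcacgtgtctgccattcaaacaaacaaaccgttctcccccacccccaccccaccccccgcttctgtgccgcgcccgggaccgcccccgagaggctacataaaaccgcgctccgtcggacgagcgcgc
Dusp5 (chr19:53528895-53529144, plus strand): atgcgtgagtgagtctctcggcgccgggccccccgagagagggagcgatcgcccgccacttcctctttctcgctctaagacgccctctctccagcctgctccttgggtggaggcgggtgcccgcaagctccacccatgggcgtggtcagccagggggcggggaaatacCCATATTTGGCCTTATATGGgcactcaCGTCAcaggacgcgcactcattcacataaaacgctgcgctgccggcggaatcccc
Dusp6 (chr10:99262981-99263230, plus strand): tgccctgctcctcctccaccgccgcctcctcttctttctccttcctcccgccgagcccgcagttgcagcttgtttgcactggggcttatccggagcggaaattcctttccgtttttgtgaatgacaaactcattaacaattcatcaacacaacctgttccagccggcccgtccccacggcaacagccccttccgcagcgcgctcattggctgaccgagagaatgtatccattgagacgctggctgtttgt
Btg2 (chr1:134079156-134079405, minus strand): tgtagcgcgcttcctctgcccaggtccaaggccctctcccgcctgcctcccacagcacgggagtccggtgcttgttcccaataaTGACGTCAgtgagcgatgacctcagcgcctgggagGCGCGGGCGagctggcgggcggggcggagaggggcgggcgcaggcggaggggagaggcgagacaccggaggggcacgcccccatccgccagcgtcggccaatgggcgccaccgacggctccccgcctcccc

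The RefSeq table held a window for 26 of the 34 members. The window nearest to the start of the measured transcript was used. It lay 6408 bases off for Nr4a2, 416 for Nr4a3 and at most 173 for the others. A CArG box was found in 4 (Egr2, Zfp36, Dusp5 and Srf), or 15.4% of them, against 1.47% of all 32851 windows. The core TGACG was in 15 (57.7% against 17.8%), and the full TGACGTCA in 3 (Dusp1, Btg2 and Maff), or 11.5%, against 508 of all windows. The EGR site was in 10 (38.5% against 4.70%), the TATA box in 6 (23.1% against 12.4%) and the AP-1 site in 1, Zfp36l1 (3.85% against 6.75%). For Nr4a2 and Srf the TATA match was on the strand opposite to the gene. The shares were not matched for base composition, which ran from 47.6% to 80.0% G or C in the members' windows. Members gave 1 window each, while the share over all windows made no such choice per gene. Junb (1 core) and Jund (no match) also had windows and groups without overlap, but are not printed. The printed promoters differed from one another in these matches. Dusp5 had 2 CArG boxes side by side and Zfp36 had 1, Dusp1 and Btg2 had the full cyclic AMP element, Fos had 2 cores and a TATA box, and Dusp6 had none of them. A match describes letters and not binding. Sites outside these 250 bases were not searched, so a gene without a match here may have one elsewhere.

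The members' median was higher in the KO-labelled libraries than in WT, and this rested on WT 2: the median log2 difference (KO-labelled minus WT, log2(value + 1) scale) was 0.19, and -0.0059 without WT 2. Limma-trend and edgeR called no member, DESeq2 called 4 and the authors' deposited table called 3. Both KO-labelled libraries exceeded both WT libraries for 11 of the 34 members, where 14.3% of all genes tested did, and fell short of both for 1, where 21.4% of all genes did. Restricted to a mean of at least 500, the members above were 10 of 26, against a background of 22.7%, and those below 0, against 12.8%. Over all genes tested the median was -0.09. With a mean of at least 500 the medians were 0.21 for the members and 0.07 for all genes.

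Limma-trend with Benjamini-Hochberg adjustment called 0 of 23116 genes (0%), with a smallest adjusted p = 0.759. At an unadjusted p under 0.05 it had 4 members, all higher (Fos, Zfp36l2, Dusp1 and Dusp6), against a background of 1.92% of genes higher and 3.52% lower. The edgeR quasi-likelihood test on recovered reads also called 0 (0%). Its unadjusted p was under 0.05 for 3 members, all higher (Fos, Zfp36l2 and Dusp6), against 2.02% of genes higher and 3.17% lower. DESeq2 on the same reads called 4 members at an adjusted p under 0.05, all higher, where it called 1.88% of genes higher and 4.61% lower. They were Fos (DESeq2 adjusted p = 0.0103), Zfp36l2 (0.00433), Dusp6 (0.0249) and Dusp1 (0.038). Its unadjusted p was under 0.05 for 6 members, all higher, against 6.54% of genes higher and 10.6% lower.

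The authors' deposited table called 3 members at q under 0.05, all higher, where it called 1.24% of genes higher and 3.23% lower. Fos had a log2 fold change of 0.44 there (q = 0.00851 in the authors' deposited table), Zfp36l2 one of 0.57 (q = 0.0059) and Dusp6 one of 0.60 (q = 0.0359). Dusp1 followed with 0.39 and q = 0.0625 in the authors' deposited table.

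The WT libraries differed from each other in these genes, WT 2 being the low one. WT 1 was above WT 2 for 27 of 34 members, against 49.5% of all genes tested. WT 2 was the lowest of the 4 libraries for 23 members, against 22.2%. In the other pair, Ythdf1 KO 1 was above Ythdf1 KO 2 for 21 members, against 47.1%. The members' median deviation from their own mean over the 4 libraries was, in log2 units, 0.086 for WT 1 and -0.22 for WT 2, beside 0.15 for Ythdf1 KO 1 and 0.0012 for Ythdf1 KO 2. The median difference of the list was 0.41 without WT 1. Summed normalised counts of the members were 224931 and 185860 in WT against 246663 and 237788. These were 0.920%, 0.749%, 0.981% and 0.929% of the counts summed over the most abundant transcript of every gene.

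**Figure D1:**
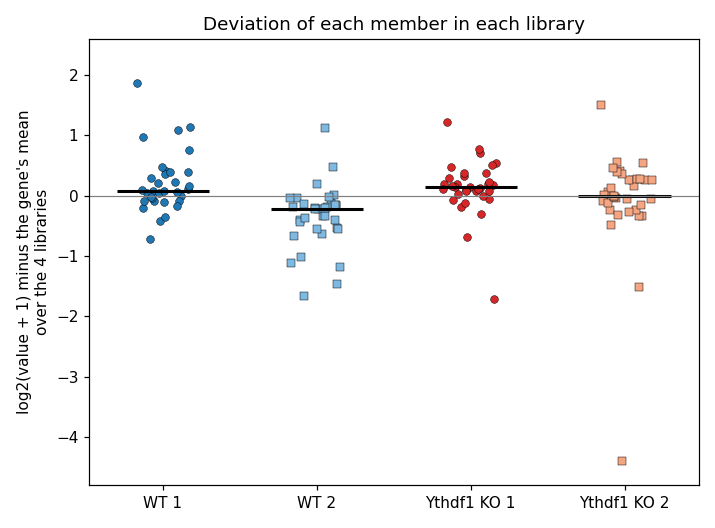
Deviation of the 34 members in each library (y axis, log2(value + 1) minus the gene's own mean over the 4 libraries; x axis, library), with a bar at the median. The bar of WT 2, at -0.22, is the lowest, and those of WT 1 and Ythdf1 KO 1 are at 0.086 and 0.15.

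**Figure D2:**
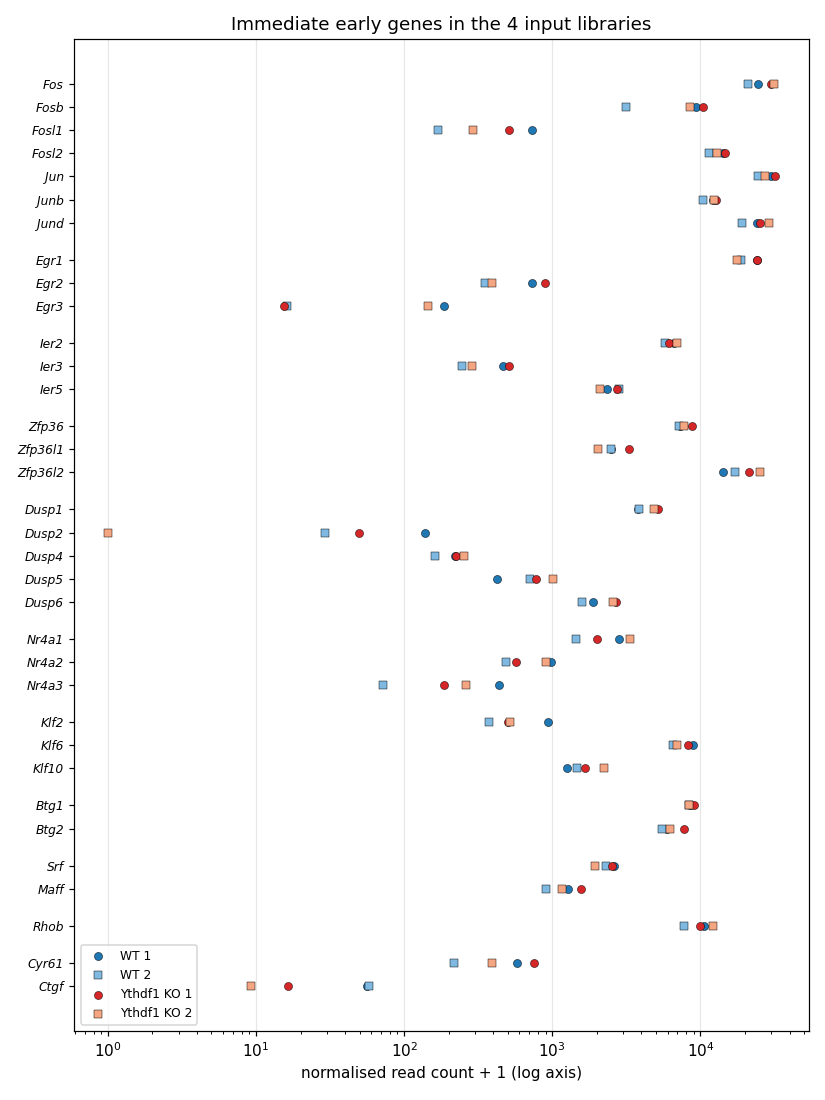
Normalised read count + 1 (x axis, log scale) of the 34 members in the 4 libraries, in blocks by role. For Fosb, Fosl1 and Nr4a3 the WT 2 symbol lies left of the other 3.

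AP-1 is a dimer of a Fos with a Jun protein, or of Jun proteins. Per kilobase of genomic transcript span (introns included, mean of the 4 libraries) Jun had 8925, Jund 8473, Fos 7908 and Junb 6456, the 4 highest of the list. The other subunits were lower on this measure, with 1065 for Fosb, 622 for Fosl2 and 51.4 for Fosl1. By mean count alone Fosl2, at 13294.2 over a span of 21369 bases, was above Junb, at 11879.5. Fos had 24400.5 and 20792 in WT against 30032 and 31337 in the KO-labelled pair. The groups did not overlap, and lay further apart than the libraries within either. On the log2(value + 1) scale such a gap was found for 7 of the 34 members and 5296 of the 23116 genes tested. The means were 22596 ± 2552 and 30685 ± 923 (SD, n = 2 each), which gives the ratio 1.36, with a log2 difference of 0.45 ± 0.12 (SE) and an adjusted p = 0.759 in limma-trend. Leaving out each library gave 0.33 to 0.56.

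Jund, a Jun protein of resting cells, had 24139 and 19066 in WT against 25403 and 28931. The groups were apart, with Ythdf1 KO 1 close to WT 1 (ratio 1.26, log2 difference 0.34 ± 0.15 (SE)). Junb, at 12218 and 10361 against 12639 and 12300, cleared WT 1 by little (log2 difference 0.15 ± 0.14 (SE)). Jun itself overlapped, at 29942 and 24508 against 31928 and 27402. The 95% interval of its log2 difference was -0.22 to 0.47.

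For the remaining Fos proteins WT 2 was the lowest library. Fosb had 9336 and 3135 in WT against 10336 and 8500, so that WT 1 lay between the KO-labelled libraries. Its log2 difference of 0.79 ± 0.48 (SE) was 1.58 without WT 1 and 0.0057 without WT 2. The fit without WT 1 called it (limma-trend adjusted p = 0.000157), with the lone WT library assumed to vary like the other group. Fosl1 (Fra-1) had 725 and 169 against 509 and 292, a log2 difference of 0.14 beside a ratio of means of 0.897, which point in opposite directions. Ccdc85b overlaps Fosl1 by 2776 bases on the opposite strand, and the sources used here do not say whether counting used strand. Fosl2 (Fra-2) overlapped, with a log2 difference of 0.11 ± 0.16 (SE).

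EGR proteins are zinc finger factors induced through serum response factor. As with most genes tested (14.3% above both WT libraries, 21.4% below), none of the 3 separated the groups. Egr1, at 5647 per kilobase the highest of them, had 24191 and 18656 in WT against 24128 and 17727. Replicate 1 was the higher in each group. The means, 21423 ± 3914 and 20927 ± 4526 (SD, n = 2 each), differed by less than either spread, and the 95% interval of the log2 difference was -0.51 to 0.44. Egr2 ranged from 352 to 893 and overlaps Ado by 2983 bases on the opposite strand. Egr3 was low and irregular, at 186 and 15.1 against 14.5 and 144.

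Of the Zfp36 proteins, 2 of 3 were above both WT libraries, against 14.3% of all genes tested (22.7% with a mean of at least 500). Zfp36l2 had 14255 and 17211 in WT against 21195 and 25409. Here WT 1, and not WT 2, was the lowest library. The means were 15733 ± 2090.1 and 23302 ± 2979.7 (SD, n = 2 each), which gives the ratio 1.48, with a log2 difference of 0.57 ± 0.15 (SE) and an adjusted p = 0.759 in limma-trend. Leaving out each library gave 0.43 to 0.70. Zfp36 (tristetraprolin), at 7253 and 7116 against 8773 and 7769, was also apart, with a ratio of 1.15 and a log2 difference of 0.20 ± 0.14 (SE). Zfp36l1 had 2486 and 2487 in WT, with the KO-labelled 3307 and 2048 on either side.

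Of the phosphatases, 4 of 5 were above both WT libraries, where 14.3% of all genes tested were (22.7% with a mean of at least 500). Dusp1, which acts in the nucleus mainly on p38 and JNK, had 3795 and 3863 in WT against 5142 and 4889. Libraries of a group lay close together, at means of 3829 ± 47.8 and 5016 ± 179 (SD, n = 2 each), which gives the ratio 1.31. The log2 difference was 0.39 ± 0.16 (SE), adjusted p = 0.759 in limma-trend, and 0.35 to 0.43 with each library left out. Dusp6, a cytoplasmic phosphatase of ERK, had 1886 and 1578 in WT against 2681 and 2569. It too was further apart between groups than within them, as were 5296 of the 23116 genes tested. Its means were 1732 ± 218 and 2625 ± 78.8 (SD, n = 2 each), which gives the ratio 1.52 and a log2 difference of 0.61 ± 0.21 (SE). Gm34921 overlaps Dusp6 by 626 bases on the opposite strand, at a mean count of 50.6.

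Dusp5, a nuclear phosphatase of ERK, had 423 and 701 in WT against 780.4 and 1009. Both groups were wide, and its log2 difference of 0.70 ± 0.39 (SE) was 0.34 without WT 1 and 1.07 without WT 2. Dusp4 had 219 and 159.5 against 223 and 253, little above WT 1. Dusp2, known mainly from leukocytes, had 136 and 28.3 in WT against 48.5 and 0, so that Ythdf1 KO 2 had no read.

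**Figure D3:**
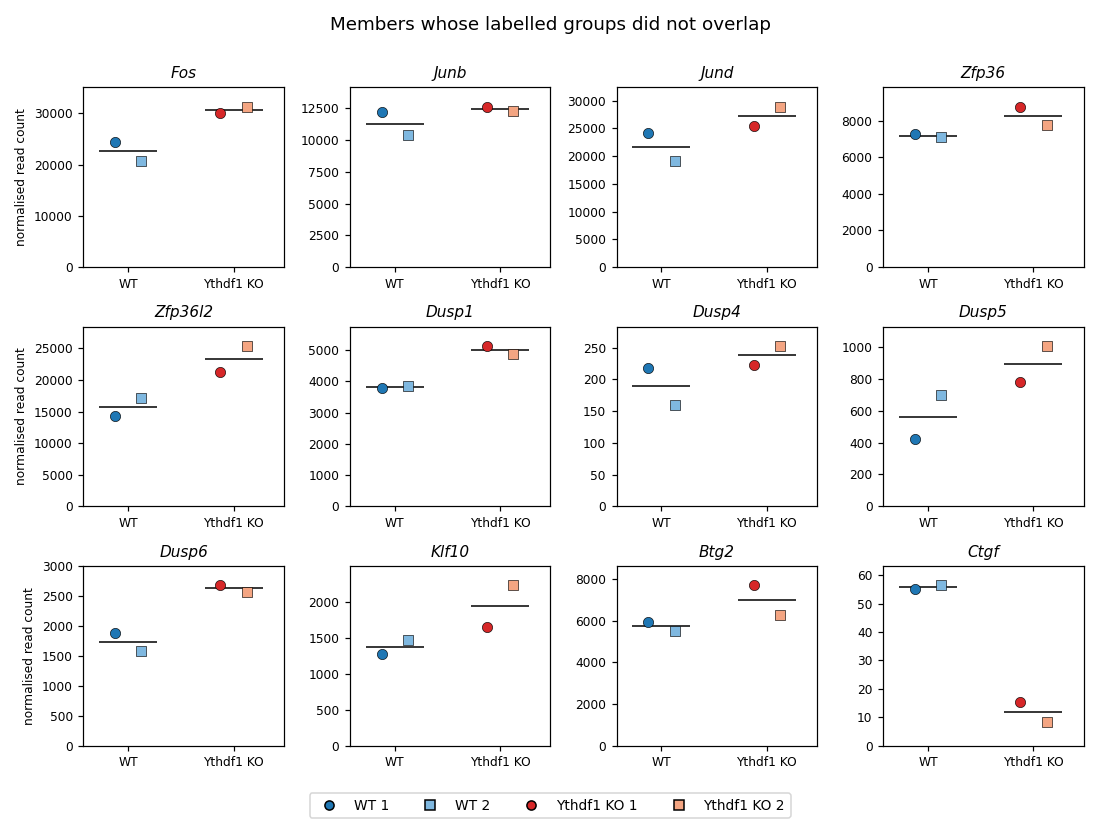
Normalised read count (y axis from 0) of the 12 members whose labelled groups did not overlap, a point per library with a bar at the group mean. In 11 panels both KO-labelled points lie above both WT points, by little in Junb and Dusp4, and Ctgf lies below, at 11.9 against 55.9 on average.

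Klf10 (TIEG1), a Kruppel-like factor induced by TGF-beta, was above both WT libraries, at 1265 and 1472 against 1651 and 2229 (log2 difference 0.49 ± 0.26 (SE)). Klf6, the highest of the 3 KLF members at 859 per kilobase, overlapped, at 8875 and 6534 against 8206 and 6975. Klf2, a factor of endothelium and resting T cells, had 929 and 372 in WT with 504 and 515 between them. Btg2, an antiproliferative protein that recruits deadenylases to mRNA, was above, at 5950.2 and 5518 against 7728 and 6272 (log2 difference 0.28 ± 0.17 (SE)). Its relative Btg1 ranged from 8343 to 9013, the narrowest of the members with a highest-to-lowest ratio of 1.08.

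The Nr4a orphan nuclear receptors overlapped in all 3 cases, as did most genes tested (14.3% above both WT libraries, 21.4% below). Nr4a1, the highest per kilobase at 307, had 2811 and 1437 in WT against 2003 and 3357. Nr4a2 ranged from 486 to 973 and Nr4a3 from 70.7 to 436, and in both the lowest and the highest library were WT. Of the Ier proteins, Ier2 was the highest at 4189 per kilobase and overlapped, at 6675 and 5742 against 6116 and 6973. Ier3 ranged from 244 to 513 and Ier5 from 2105 to 2836.

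Srf, the factor that binds the CArG box, overlapped at 2626 and 2319 in WT against 2522 and 1953 (log2 difference -0.15 ± 0.22 (SE)). Maff, a small Maf protein, ranged from 907 to 1563. Rhob, a GTPase of endosomes, had 10645 and 7779 against 9909 and 12135. Of the secreted CCN proteins, targets of YAP and SRF, Ctgf was the member below both WT libraries, at 55.2 and 56.5 against 15.5 and 8.27, the latter being 16 and 10 reads. Its log2 difference was -2.20 ± 2.08 (SE), adjusted p = 0.836 in limma-trend. Cyr61 overlapped, at 574 and 215 against 749 and 394.

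**Figure D4:**
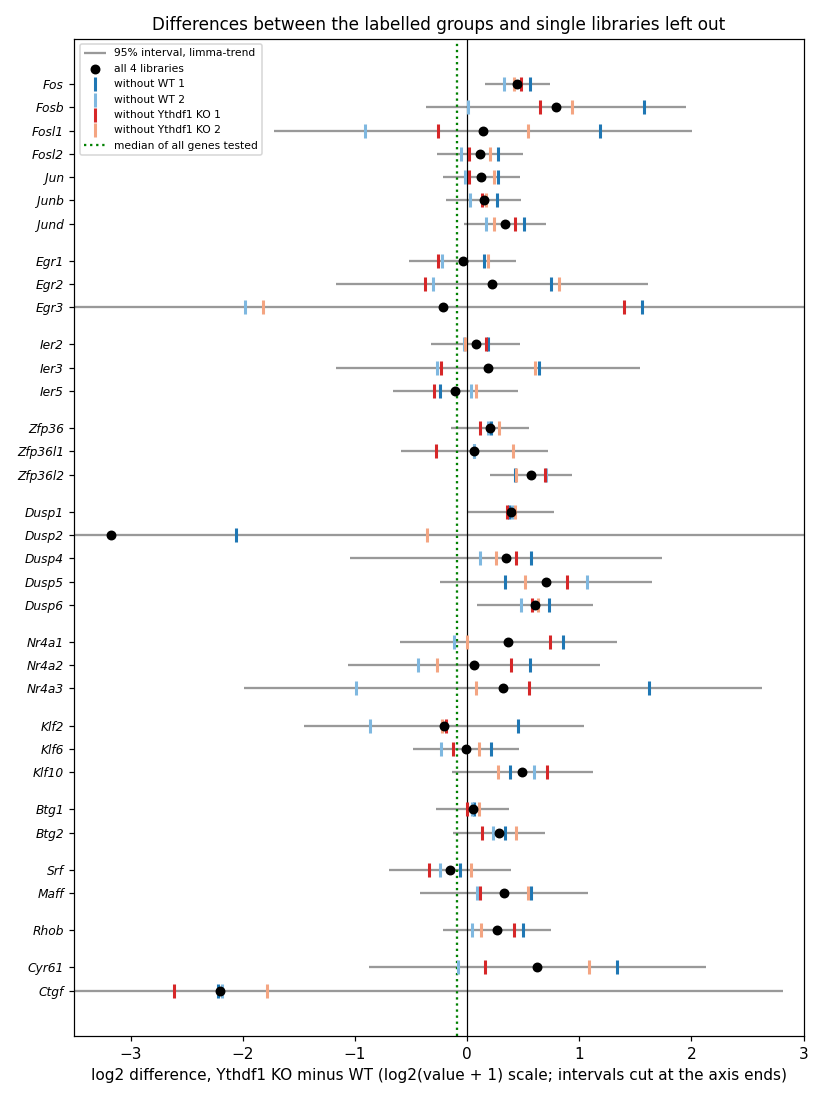
Log2 difference (x axis, KO-labelled minus WT, log2(value + 1) scale) of the 34 members with its 95% interval, cut at the axis ends, marks for the fits without each library and a dotted line at the median of all genes tested, -0.09; for Dusp2 the marks at -4.29 (without WT 2) and -5.99 (without Ythdf1 KO 1) lie beyond the axis. Unadjusted intervals stay above 0 for Fos, Zfp36l2, Dusp1 and Dusp6.

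Other genes of the pathway were counted from lists kept apart from the members. Of 34 signalling inputs, 5 were above both WT libraries (Mkl2, Braf, Mapk14, Mapkapk2 and Yap1) and 2 below, Araf among them. These are 14.7% and 5.88% of the list, against 14.3% and 21.4% of all genes tested (22.7% and 12.8% with a mean of at least 500). The share above is near the first background and under the second. The median log2 difference was 0.20, or 0.11 without WT 1. Mapkapk2, a kinase downstream of p38 that phosphorylates Zfp36, had 1773 and 1931 in WT against 3096 and 2828, and Mapk14 (p38 alpha) 1841 and 2779 against 3325 and 3416. Araf and Braf, kinases that activate MEK, went different ways. Araf had 2296 and 2693 against 1510.5 and 1469, while Braf had 1143 and 1170.1 against 1447 and 1443.

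Of 48 other early response genes, 13 were above both WT libraries and 3 below, or 27.1% and 6.25%, against 14.3% and 21.4% of all genes tested (22.7% and 12.8% with a mean of at least 500). Their median was 0.39, or 0.21 without WT 2. Plk3, a stress-induced kinase, had 3583 and 2629 in WT against 5255 and 5291. Errfi1, a feedback inhibitor of the EGF receptor, had 3669 and 3875 against 5368 and 5173, and Cebpb, a bZIP factor, 724 and 786 against 1247 and 1677. Ereg, a ligand of the EGF receptor, was below, at 162 and 197 against 0.969 and 87.7. Of 11 heat shock genes 3 were above (Hspa8, Hsp90aa1 and Bag3) and 1 below (Hspe1), or 27.3% and 9.09%, the former near the 22.7% found over all genes whose mean was at least 500. Limma-trend called 0 genes of these lists (0% of all genes); at an unadjusted p under 0.05 it had 1 input higher and 1 lower, 7 other early response genes higher and 1 heat shock gene higher, where 1.92% of all genes were higher and 3.52% lower.

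Markers of other cells were also measured. Of 16 leukocyte markers 13 were listed, with 0 above and 4 below both WT libraries (30.8% below, against 21.4% of all genes tested), and summed counts of 1617 to 1652 in WT against 933 to 1001. Cd3g, Cd79a, Lyz2, Adgre1 and S100a9 were among those at 0 in at least 1 library. Of 16 markers of stroma, muscle, vessels and nerve 15 were listed, with 0 above and 4 below (26.7%), sums of 2679 to 4673 in WT against 1935 to 3317, and 0 of them at 0. The 11 epithelial markers had 3 above and 3 below, or 27.3% each, against 14.3% and 21.4% of all genes tested. With a mean of at least 500 the background was 22.7% above and 12.8% below. The epithelial sums were 883116 to 949261 in WT against 724442 to 998516. The part of such cells in the levels of Dusp2, Klf2, Ctgf and the Nr4a genes was not tested, and in bulk samples fewer cells of a type and less RNA per cell cannot be told apart.

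The members were compact genes. Their transcripts spanned a median of 4275 bases of the genome (range 1199 to 41559), against 19367 for protein-coding genes, and 28 of 34 spanned under 10000 bases, against 31.2% of protein-coding genes. A lone transcript was listed for 24 members, against 43.0% of all genes.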

How the data were processed

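The table covers 4 input RNA libraries of mouse colon epithelial cells, 2 per labelled genotype. Tools named for the series, per the submitters' processing notes, include Bowtie2 2.2.5, SAMtools 1.3.1 and HOMER 4.10, with mm10 and no roles; sources used here do not name the counting program. The deposited signal is a normalised read count per transcript. All values above 0 (100%) were whole multiples, within 0.001, of a library's step, so the authors' values are read counts divided by a size factor, a read being worth 0.827 to 1.13. The authors deposited for each transcript its log2 fold change, p-value and q-value.

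Each gene was represented by its most abundant transcript (ties, in 3 members, by accession). Limma-trend 3.58.1 (robust, R 4.3.3) was fitted to log2(value + 1) with the genotype label as sole term, on genes of at least 1 in at least 2 libraries, and tested on simulated data. Calls were made at an adjusted p under 0.05 (Benjamini-Hochberg, all genes). Recovered reads were tested with edgeR 4.0.16 and DESeq2 1.42.0 as alternatives. Members and lists were chosen with earlier results of these data known. Values in every library are given for members whose groups did not overlap, those with a deposited q under 0.05 and the highest of each role per kilobase. Other members given that way, and the genes named from the other lists of early response genes, were chosen after their values were seen. Promoters came from RefSeq. Some genes of the lists are not reported here by name.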

Additional observations from a re-analysis of the deposited data

How the results depend on the processing

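The members' median of 0.19 lay between 0.17 and 0.22 with summed isoforms, other pseudocounts, a mean of at least 500, quantile normalisation, edgeR and DESeq2. Dropping the filter cannot move it, since every member had passed. The median lay between -0.0059 and 0.41 when each library was left out. Members whose remaining KO-labelled libraries exceeded the remaining WT libraries then numbered 11 to 27, and those below 2 to 10. Over all genes 26.5% to 31.1% were then above and 36.5% to 37.2% below. Without WT 2, 11 members were above and 10 below, against 27.7% and 37.2% of all genes. Without WT 1, these counts were 27 and 2, against 26.5% and 36.8%. With 3 libraries these counts are not comparable with those over 4. Over all 4, with a mean of at least 500 there were 0 below. Limma without a trend called 632 genes and DESeq2 1431, and fits that left out 1 library called 0 to 36 (2 without WT 1, 6 without WT 2, 36 without Ythdf1 KO 1); the cause was not tested. The other planned settings called 0 genes, edgeR among them. With the replicate number as a block 0 genes were called. The median stayed at 0.19, which is no check, since a block cannot change group differences in this balanced layout. Differences between replicates 1 and 2 in WT and in the KO-labelled pair correlated at -0.008 over all genes tested. The correlation was 0.022 over genes with a mean of at least 500. Such values show little shared effect of the number, but cannot settle whether the libraries were paired.

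Of the 34 members, 27 kept their direction in every setting with all libraries. Changing the filter or the trend, adding the replicate block or testing all transcripts cannot change a member's difference. Only summed isoforms, other pseudocounts, quantile normalisation, edgeR and DESeq2 could turn a direction. With quantile normalisation Egr3 turned to 1.28, Ier2 to -0.013, Zfp36l1 to -0.016 and Btg1 to -0.019. In edgeR Fosl1 turned to -0.13, Nr4a3 to -0.16 and Klf6 to 0.0039, and in DESeq2 Fosl1 to -0.15 and Nr4a3 to -0.18. The direction of 18 turned when a library was left out: Egr1 (-0.26 to 0.18), Egr3 (-1.98 to 1.56), Klf2 (-0.86 to 0.46), Klf6 (-0.23 to 0.21), Fosl1 (-0.91 to 1.19), Fosl2 (-0.053 to 0.28), Jun (-0.018 to 0.27), Egr2 (-0.37 to 0.82), Ier2 (-0.032 to 0.19), Ier3 (-0.27 to 0.64), Ier5 (-0.29 to 0.079), Nr4a1 (-0.12 to 0.85), Nr4a2 (-0.44 to 0.56), Nr4a3 (-0.99 to 1.62), Cyr61 (-0.079 to 1.33), Zfp36l1 (-0.28 to 0.41), Btg1 (-0.0026 to 0.10), Srf (-0.34 to 0.031). The number of libraries, 2 per group, limits the precision.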

Other observations

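Isoforms of a member could differ from its most abundant transcript. For Maff, 5 of the 7 listed transcripts were above WT without overlap, while the most abundant (1271 and 907 in WT against 1563 and 1165) overlapped. All 3 transcripts of Klf10 were above, with log2 fold changes of 0.50 to 0.70 in the authors' deposited table. The 9 transcripts of Egr2 ran from -0.21 to 0.25 and the 5 of Nr4a3 from -0.24 to 0.70 in the authors' deposited table. Transcripts of a gene can share reads, so these are not independent counts.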
